A study of Glycine max with 12 samples.

Results

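The variety difference described here is that between the roots of 2 soybean (Glycine max) varieties exposed to aluminium, KF, labelled Al-tolerant, and Guangfengmaliaodu (GF), labelled Al-sensitive. It rests on the 6 arrays labelled Al of the 12 arrays in all, read as KF minus GF at 6, 12 and 24 h, which gives 3 pairs matched on time. Three-day-old seedlings raised in sand were moved into 0.5 mM CaCl2 at pH 4.3 with 25 µM AlCl3 for each of those times. The other 6 arrays are control roots of both varieties in the same acid CaCl2 solution with 0 µM AlCl3, so the acid and the calcium were shared by every group. Each variety, treatment and time has 1 array of whole roots, described in the submitters' design as one biological replicate, and the number of plants in a sample is not given in the sources used here.

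In acid soil aluminium becomes soluble, binds to the cell wall and plasma membrane of the root tip, and stops root elongation. Tolerant plants are known to release organic acids that chelate the metal, through transporters of the MATE and ALMT families, or to store it in the vacuole or the shoot through transporters such as ALS3. Aluminium also raises reactive oxygen species in roots, and class III peroxidases, which use hydrogen peroxide to cross-link wall polymers and lignin, are secreted into the wall where this takes place. The series was set up to look for candidate tolerance genes by comparing these varieties, and its title singles out peroxidase.

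Of the 66195 probe sets for soybean transcripts on the array, 49646 passed a filter on mean signal and were tested. Differences below are the mean log2 KF minus GF of the 3 pairs ± the standard error (SE) of limma's fit. That SE uses a spread shared with the control pairs and drawn towards that of probe sets of similar signal. A probe set was called where limma's test, adjusted by Benjamini-Hochberg over all probe sets tested, gave p below 0.05. With 1 array per condition, such a p-value measures how steady the variety difference was from time to time, with the spread shared with the control pairs, and not the spread between replicate plants. A signal was taken as above background where it exceeded the array's 95th percentile of the 23 antigenomic control probe sets, which lay at log2 levels of 4.91 to 5.32 on the Al arrays. Where a variety was above that level on no Al array, its level there is not measured: the log2 difference is then that of the deposited signals, and the measured size is the least fold that the background allows, given for the genes described at length.

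The arrays of a pair were close over all probe sets, and in Al their correlation across probe sets was 0.973 (6 h), 0.971 (12 h) and 0.942 (24 h). Between 5677 and 8119 main probe sets were above background on the Al arrays. The GF control array at 24 h stood apart, with a background level of 6.18 against 4.87 to 5.60 on the other control arrays and with 2479 probe sets above it. Of the tissue markers, 4 of 4 root hair probe sets were above background on an Al array, 14 of 58 for the endodermis and Casparian strip (24.1%) and 10 of 33 for nodules (30.3%), against 21.2% of all probe sets tested. The shares were 4 of 46 for photosynthesis (8.7%) and 1 of 36 for seed storage proteins (2.78%). None of the 46 photosynthesis, 36 seed storage or 33 nodule probe sets of these lists was called between the varieties. The lists rest on annotation text and leave out some called genes with related names. Among those left out, NFR5A, named Nod factor receptor protein (-3.34), and psbK, named PSII K protein (-1.19), were lower in KF in Al. The glutelin type-A 1-like gene LOC100782055, described below, was higher in KF and is also outside the seed storage list. In whole roots, fewer cells of a type and less RNA per cell cannot be told apart.

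In Al-treated roots 1119 probe sets were called, 2.25% of those tested, with 614 higher in KF (1.24%) and 505 lower (1.02%). All of the 1119 had the same sign at the 3 times, and in 733 the KF and GF levels did not overlap, which held for 9.91% of all probe sets tested. The median difference was 1.28 among those higher in KF and -1.36 among those lower, and 110 and 81 of them reached 4-fold. A single gene was assigned to 698 of the called probe sets, covering 695 genes, while 369 had no gene name and 52 had several. Neither variety rose above background for 538 of the called probe sets, so for those the size of the difference is not given as a fold. Of the 10529 probe sets above background on an Al array, 5.52% were called. The number called depended on the design: 333 were called with each Al pair left out in turn, 173 in a fit on the 6 Al arrays alone, and 26 with every array floored at one common background level.

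The largest difference between deposited signals was that of LOC100803799, with KF below background, a RuBisCO-associated protein-like gene on chromosome 3 at 2696108 to 2696799. Its log2 level in Al was 9.60, 10.17 and 9.25 in GF at 6, 12 and 24 h, and 1.43, 1.82 and 1.69 in KF. GF was above and KF below background at every time. The difference was -8.03 ± 0.45 (adjusted p = 8.56e-05), at least 25.3-fold, and it was -5.44 in control solution (adjusted p = 0.000832). GF control levels were 8.52, 7.2 and 5.44, and the change in the variety difference with Al was not called (adjusted p = 0.283).

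SYP24, named syntaxin-24-like and carrying a late embryogenesis abundant LEA-14 domain, came next (chromosome 19, 45459111 to 45459981). GF levels in Al were 7.15, 7.43 and 8.51, whereas KF levels were 1.29, 1.61 and 2.02. In control solution both varieties lay below background, GF at 2.15 to 2.41 and KF at 1.34 to 1.48. The transcript was thus above background only in GF with Al among the 12 arrays. Its difference in Al was -6.06 ± 0.18 (adjusted p = 5.89e-06; at least 6.41-fold), and it exceeded that in control solution by -5.15 (adjusted p = 0.000449).

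Several other genes below background in KF were bright in GF. Annexin D4-like LOC100784954, of a family of proteins that bind membranes in a calcium-dependent way, had GF levels of 6.75, 6.25 and 5.16 and KF levels of 1.79, 1.60 and 2.27 (difference -4.17 ± 0.42, adjusted p = 0.00179; at least 2.06-fold). LOC100800378, with the caleosin domain of calcium-binding oil body proteins, differed by -4.42 ± 0.24 in Al and by -5.26 in control. LOC100527600, with the domain of ORMDL proteins, which restrain sphingolipid synthesis, differed by -3.83 in Al and -3.53 in control. The ANXUR2-like receptor kinase LOC100787367, of the family whose Arabidopsis members sense wall integrity, differed by -3.78 in Al and -2.85 in control. For these 4 genes the groups did not overlap and both differences were called. The uncharacterized genes LOC100779876 (-5.34 in Al, -1.63 in control) and LOC100811856 (-4.15 and -0.94) completed the lower end together with 2 peroxidases, an RPM1-like resistance gene and the receptor-like kinase LOC100780344, which are taken up below.

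At the other end LOC100785561, a leucine-rich repeat receptor-like kinase on chromosome 9 (41254527 to 41258109), was above background in KF only among the Al arrays. KF levels in Al were 5.72, 6.59 and 5.66, and GF levels 0.44, 0.97 and 0.84. It differed by 5.24 ± 0.30 (adjusted p = 9.56e-05; at least 1.86-fold) and by 3.51 in control solution. KF was above and GF below background at all 3 times. Another 5 of the 12 genes with the largest differences towards KF had control differences closer in size to those in Al. They were the F-box/LRR-repeat protein LOC100820469 (4.24 in Al, 3.59 in control), LOC100527900 (4.12 and 4.49), the heavy-metal-associated domain protein LOC100812505 (4.11 and 3.56), the RING1-like E3 ubiquitin ligase LOC100797586 (3.52 and 3.08) and the LURP-one-related 12-like gene LOC100781192 (3.42 and 3.69), of a family named for late induction by a downy mildew in Arabidopsis. LOC100812505 was above background in both varieties, with GF levels of 4.46, 5.46 and 5.82 and KF levels of 8.46, 9.34 and 10.28.

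Of the other 6, the glycolipid transfer protein-like gene LOC100813626 is described below, and 5 differed between the varieties by at most 0.63 in control roots. GDSL esterase/lipase 5-like LOC100809397, of a family of secreted lipid and ester hydrolases (chromosome 15, 49063505 to 49067864), had KF levels in Al of 5.38, 5.84 and 5.25 and GF levels of 0.90, 0.83 and 1.05. Its 6 control levels lay between 0.70 and 0.96. The difference was 4.56 ± 0.18 in Al (adjusted p = 1.7e-05; at least 1.32-fold) and -0.09 in control. GSTU24, a tau-class glutathione S-transferase, was at 5.60, 5.32 and 6.56 in KF and 1.43, 1.17 and 1.22 in GF (difference 4.55 ± 0.24, adjusted p = 7.5e-05; at least 1.66-fold), although its probes bind more than one gene. Such enzymes join glutathione to reactive compounds. LOC100776669 differed by 4.47 ± 0.44, EIN3-like 4 LOC100789795, of the transcription factors that carry the ethylene signal, by 3.80 ± 0.48, and the cupin gene LOC100782055, named glutelin type-A 1-like, by 5.4 ± 0.34, again with probes that bind several genes. KF levels of these 3 were higher at 24 h (8.18, 7.26 and 8.73) than at 6 h (5.44, 3.64 and 6.56), whereas GF stayed between 1.15 and 2.37.

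**Figure D1:**
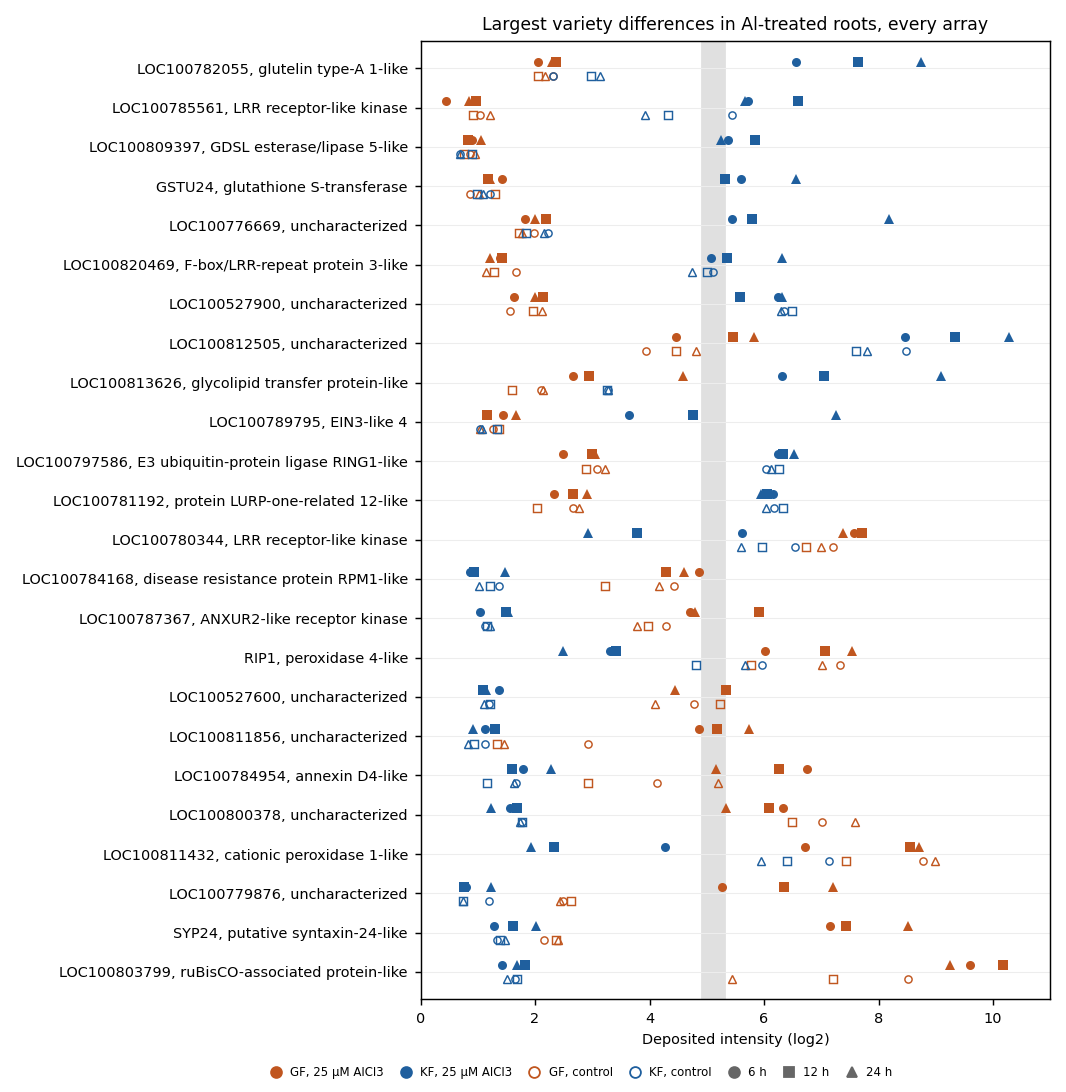
Deposited intensity (log2, horizontal axis) of the 12 genes highest and the 12 lowest in KF among called probe sets with 1 gene, ordered by the difference in Al. Filled symbols are the Al arrays and open symbols the control arrays, GF in orange and KF in blue, with circles for 6 h, squares for 12 h and triangles for 24 h, and the grey band spans the background levels of the Al arrays; each point is 1 array. GF and KF symbols do not overlap in Al for any of the 24 genes.

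The 24 genes differed in how far their levels were shared with control roots. In 14 of the 24 the variety difference was called in control solution too, and in 6 the difference in Al departed from that in control. All but 1 were called with each Al pair left out, the exception being the peroxidase LOC100811432 without the 12 h pair (adjusted p = 0.057).

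Whether the varieties differed in the same genes without aluminium was asked with the control pairs. In control roots 626 probe sets were called (1.26%), 410 higher (0.826%) and 216 lower (0.435%) in KF. Of these, 282 were also called in Al, all with the same sign, which is 25.2% of the calls in Al and 45.0% of those in control. The calls in Al that were higher in KF had a median control difference of 0.30, and those lower a median of -0.47. The same blocked fit gave both sets of calls, and both use the spread of the control arrays. The control counts include the GF array at 24 h with its raised background; without the 24 h control pair, 736 probe sets were called in Al and 219 in control.

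The change of the variety difference with Al was itself tested, and 17 probe sets were called (0.0342%), 14 with a higher (0.0282%) and 3 with a lower (0.00604%) KF minus GF in Al; 4625 had an unadjusted p below 0.05. Of the 17, 15 were also called in Al. Beside SYP24, the GDSL enzyme, GSTU24 and the glutelin-like gene, they included WRKY70-like LOC100792193, whose Arabidopsis namesake acts between salicylate and jasmonate defence. GF levels of this gene in Al were 5.75, 5.82 and 4.86 and KF levels 3.21, 2.47 and 2.12, without overlap, and in control the 6 levels lay between 1.98 and 2.73. Its difference was -2.87 ± 0.20 in Al and -0.35 in control (adjusted p of the change 0.0356).

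Among those raised in KF with Al, the glycolipid transfer protein-like gene LOC100813626 reached 6.31, 7.05 and 9.08 in KF against 2.65, 2.95 and 4.58 in GF. It differed by 4.09 ± 0.21 (adjusted p = 6.34e-05; at least 5.23-fold) against 1.32 in control, and proteins of this kind carry lipids between membranes. Mx1-like LOC100797278, a dynamin-type GTPase, differed by 2.38 ± 0.16 in Al and -0.02 in control. The dirigent-like gene PTS3 differed by 1.41 and -0.07, and GASA4, a snakin-2-like antimicrobial peptide gene, by 1.40 and -0.17, and for all 3 neither variety was above background. LOC100820614 differed by 2.05 and 0.08. The unnamed probe set 11866315 on chromosome 5 (8921913 to 8925444) stood at 5.18, 6.04 and 8.26 in KF and 1.99, 2.28 and 3.69 in GF, a difference of 3.84 ± 0.26 (at least 2.63-fold) against -0.40 in control.

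In 2 of the 17 the varieties did not pass the test in Al and did so in control. Expansin-like B1 LOC100778424, of a family related to wall-loosening proteins, had KF levels of 3.41, 4.31 and 4.17 and GF levels of 6.95, 7.92 and 7.42 in control. In Al the levels overlapped, at 8.52, 8.49 and 9.24 in KF and 7.30, 7.99 and 9.12 in GF. The difference was -3.47 in control (adjusted p = 0.000258) and 0.61 ± 0.22 in Al (adjusted p = 0.224). LOC100776716 followed the same course, with -2.38 in control and -0.09 in Al. The count of 17 was sensitive to single arrays, since 2 were called without the 24 h control pair.

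**Figure D2:**
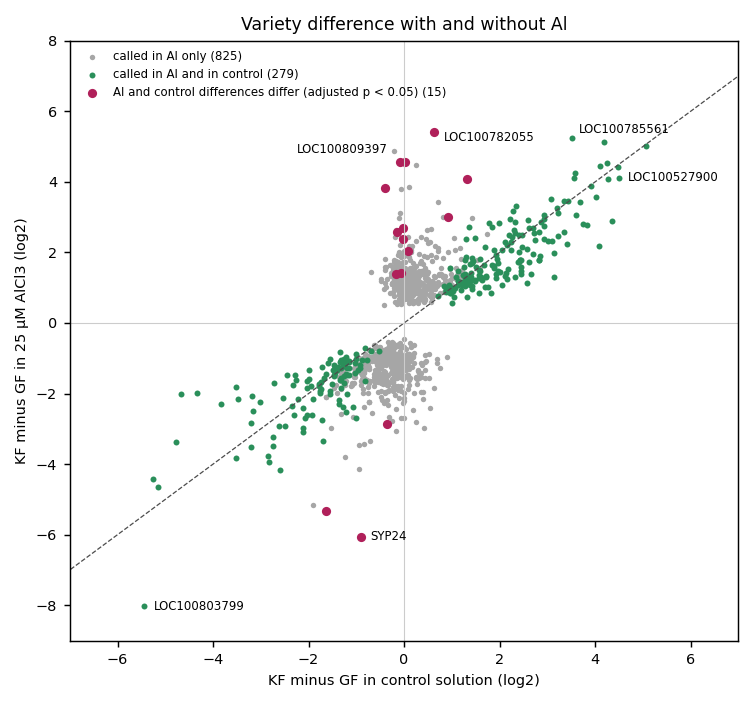
KF minus GF (log2) in 25 µM AlCl3 against the same difference in control solution for the 1119 probe sets called in Al, each point 1 probe set; the dashed line marks equal differences. Grey points (825) were called in Al only, green points (279) also in control, and red points (15) had a difference in Al that departed from that in control; no point lies near zero on the vertical axis since all were called on it.

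Class III peroxidases were lower in KF where they were called: of 136 tested (169 on the array) 11 were lower and 0 higher, 8.09% against 2.25% of all probe sets, and their median difference was -0.10 against 0.00028 for all. In control roots 1 was called. LOC100811432, cationic peroxidase 1-like (chromosome 3, 5075225 to 5078280), had GF levels of 6.71, 8.54 and 8.71 and KF levels of 4.26, 2.33 and 1.92 in Al. KF control roots held it at 7.13, 6.41 and 5.95 and GF control roots at 8.78, 7.42 and 8.98, so the low values were those of KF with Al. Its difference was -5.15 ± 0.72 in Al (adjusted p = 0.0086; at least 7.84-fold) and -1.90 in control (adjusted p = 0.299). RIP1, peroxidase 4-like, had levels of 6.01, 7.06 and 7.53 in GF and 3.30, 3.41 and 2.49 in KF, a difference of -3.80 ± 0.36 (adjusted p = 0.00129; at least 3.61-fold).

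Peroxidase 21-like LOC100811277 stood at 7.29, 7.45 and 6.98 in GF and 4.62, 3.66 and 3.18 in KF (difference -3.42 ± 0.29, adjusted p = 0.000651; at least 4.67-fold), with control levels of 6.29 to 7.81 in both varieties. LOC100804829, peroxidase 15-like, differed by -2.37 ± 0.22 and a second peroxidase 15-like gene, LOC100805299, by -0.96 ± 0.20. The peroxidase LOC547871 fell below GF at each time, at 6.22, 5.14 and 1.34 in KF against 7.79, 6.88 and 4.86, but the ranges overlapped, with both varieties lowest at 24 h, and its probes bind more than one gene. Peroxidase 54-like GLYMA09G02650 was at 8.08, 8.75 and 8.21 in GF and 7.42, 6.46 and 5.43 in KF, above background throughout, a difference of -1.91 ± 0.37 (adjusted p = 0.036). Cationic peroxidase 1-like LOC100802244, the brightest of the 11, differed by -0.66 ± 0.13 at levels above 9 in every array. The rest of the 11 (peroxidase 10-like LOC100789642, peroxidase 16-like LOC100808542 and LOC547872) lay at or below background in both varieties. LOC547872 has a further, brighter probe set that was not called, with its levels given below among the single times.

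No peroxidase was called higher in KF. The largest positive values were 1.41 ± 0.41 for peroxidase 52-like LOC100790279 (adjusted p = 0.137), 1.40 ± 0.39 for LOC100803637 of the same name (adjusted p = 0.12) and 1.25 ± 0.28 for peroxidase 12-like LOC100777390 (adjusted p = 0.0628). Both peroxidase 52-like genes had KF and GF levels at 24 h within 0.14 of each other, at 7.87 and 7.73 and at 6.58 and 6.57. With an Al pair left out, 7 to 11 peroxidases were lower in KF and up to 2 higher, and 4 were lower in the fit on the Al arrays alone. LOC100811432, GLYMA09G02650, LOC100808542, LOC100805299 and LOC100802244 each lost the call without the 6 or 12 h pair (adjusted p 0.057 to 0.153).

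**Figure D3:**
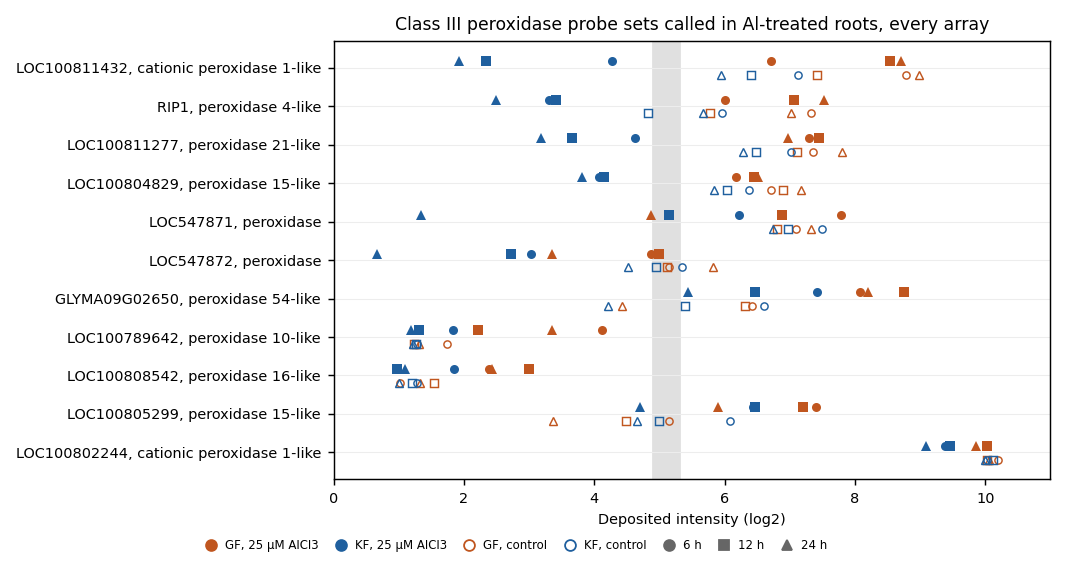
Deposited intensity (log2, horizontal axis) of the 11 class III peroxidase probe sets called in Al, with filled symbols for Al and open symbols for control arrays, GF in orange and KF in blue, circles for 6 h, squares for 12 h and triangles for 24 h; each point is 1 array and the grey band spans the background levels of the Al arrays. The KF Al symbols lie left of the GF Al symbol of the same time for each of the 11.

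Other enzymes of redox metabolism went both ways. Of 49 glutathione S-transferases 4 were higher in KF and 0 lower (8.16%), and none was called in control. The list takes in probe sets by their annotation text and so leaves out GSTU60, annotated only as uncharacterized, which was lower in KF by -1.35 ± 0.27 (adjusted p = 0.0375; 0.13 without the 12 h pair). GSTU47 had KF levels of 5.32, 5.60 and 7.4 and GF levels of 2.64, 3.77 and 5.74, a difference of 2.06 ± 0.26 (adjusted p = 0.00576), with both varieties higher at 24 h so that the ranges overlapped. LOC100809206, with levels below background, differed by 0.99 ± 0.18 and lost the call without the 12 h pair (adjusted p = 0.12). Among 60 probe sets listed by annotation text as ROS scavengers, 3 were higher and 0 lower (5.0%, against 2.25% of all probe sets). They were the ascorbate oxidase-like LOC100792962 (1.63 ± 0.19 in Al, -0.10 in control), the ascorbate oxidase homolog LOC100793934 (1.51 and 1.57) and ascorbate peroxidase APX2 (0.93 and 1.20). The first 2 are named as oxidases of ascorbate, so APX2 alone of the 3 is named as an enzyme that removes ROS. APX2, which removes hydrogen peroxide with ascorbate, stood at 7.92, 7.59 and 6.40 in KF and 6.79, 6.71 and 5.62 in GF. Of 63 ROS producers (6.35% called) the respiratory burst oxidase E-like LOC100805697 was higher (0.96) and 3 were lower. Among the lower were polyamine oxidase 4-like LOC100791090 (-1.06) and primary amine oxidase-like LOC100781472 (-1.68). APX2, LOC100793934, LOC100805697, LOC100791090 and LOC100781472 lost the call without the 6 or 12 h pair (adjusted p 0.0917 to 0.137).

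Resistance proteins of the NBS-LRR type, intracellular receptors that detect pathogen effectors, had the highest share of calls among the lists of 30 or more: 34 of 157 tested, or 21.7%, with 21 higher and 13 lower in KF. In control roots 16 were called, 8 each way. Their median difference was 0.17. Most were faint, with 40 of the 157 above background on an Al array, of which 16 were called (40%, against 5.52% of all such probe sets). Calls numbered 10 to 17 higher and 6 to 12 lower when an Al pair was left out.

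By kind, 47 TMV resistance protein N-like probe sets gave 8 higher and 3 lower, and 18 RPM1-like ones gave 1 higher and 5 lower. RPM1-like LOC100784168 on chromosome 18 (8169570 to 8173170) stood at 4.86, 4.28 and 4.6 in GF and 0.87, 0.93 and 1.48 in KF, all below background, and differed by -3.49 ± 0.26 in Al and -2.74 in control. The N-like gene LOC100792603 on chromosome 9 was at 5.0, 5.91 and 7.57 in KF and 3.05, 3.03 and 5.11 in GF, a difference of 2.43 ± 0.22 (adjusted p = 0.000998) against 0.36 in control. RGA1-like LOC100811488 had KF levels of 5.44, 4.95 and 4.6 and GF levels of 1.85, 2.10 and 2.55, and differed by 2.83 ± 0.27 in Al and 1.78 in control. RPM1-like LOC100798933 on chromosome 8 ran opposite to its namesake on chromosome 18, with 2.23 ± 0.27 in Al and 3.40 in control (adjusted p = 0.000761). The TIR-NBS-LRR gene LOC100305456 held 4.17, 4.14 and 4.27 in KF and 1.24, 1.46 and 1.08 in GF, again under background, and differed by 2.93 in Al and 2.60 in control.

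Receptor-like kinases, which pass signals from outside the cell inward, were the largest list: 39 of 759 were called (5.14%), 24 higher and 15 lower in KF, against 9 in control. The lowest after ANXUR2-like LOC100787367 was the leucine-rich repeat kinase LOC100780344, with GF levels of 7.58, 7.72 and 7.37 and KF levels of 5.61, 3.77 and 2.92. It differed by -3.45 ± 0.41 (adjusted p = 0.00388) and by -0.94 in control (adjusted p = 0.362). Without the 6 h pair 12 were higher and 7 lower, without the 12 h pair 12 and 6, and without the 24 h pair 34 and 15.

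Signalling genes inside the cell gave few calls. All 4 called members of the 68 in the MAP kinase cascade (5.88%, against 2.25% of all probe sets) were higher in KF, among them MEKK (1.05 ± 0.20), MMK2-like LOC100801808 (0.96) and the kinase kinase kinase LOC100797177 (1.0); 1 or 2 were called with an Al pair left out. Of 213 calcium signalling genes 6 were higher and 2 lower (3.76%), with CDPK-GAMMA, a calcium-dependent protein kinase, at 7.59, 7.2 and 8.04 in KF and 6.68, 5.77 and 6.47 in GF (1.31 ± 0.20, adjusted p = 0.0151). The calmodulin-like gene LOC100784685 differed by 1.27 and the calcium pump LOC100783489 by 0.94. These 6 named genes lost the call without the 6 or 12 h pair (adjusted p 0.0809 to 0.169).

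Among transcription factors, NAC proteins, many of which respond to stress and senescence, had 7 members higher and 1 lower of 86 tested (9.3%), against 2 lower in control. NAC90-like LOC100777948 was highest at 24 h in both varieties, at 3.37, 4.22 and 7.46 in KF and 2.0, 2.63 and 5.87 in GF, and differed by 1.52 ± 0.15 in Al (adjusted p = 0.00176) and 0.0032 in control. A second NAC90-like gene, LOC100800056, differed by 1.82 ± 0.36, and 3 NAC8-like genes, whose Arabidopsis relative SOG1 acts in the DNA damage response, differed by 1.70 (LOC100783888), 1.37 (LOC100809389) and 1.18 (LOC100791680). NAC19 differed by 1.01. NAC102-like LOC100785870 was lower in KF, at 3.37, 2.74 and 4.61 against 4.90, 5.69 and 5.96 (-1.94 ± 0.32). Only LOC100777948 among these kept the call with each pair left out; the others reached adjusted p 0.0603 to 0.14, and the list gave 2, 5 or 6 higher.

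Of 131 WRKY factors, which bind W-box promoter elements in defence and stress, 4 were higher and 3 lower (5.34%). Beside WRKY70-like LOC100792193, WRKY72-like LOC100809801 was lower in KF, at 4.54, 1.30 and 4.62 against 5.91, 6.35 and 7.15 in GF (-2.98 ± 0.57, adjusted p = 0.0329). Its adjusted p was 0.0583 without the 12 h pair, where KF was lowest. WRKY40-like GLYMA07G02630 stood at 5.54, 5.74 and 6.79 in KF and 3.80, 4.30 and 5.81 in GF (1.39 ± 0.21), and WRKY23-like LOC100816452 differed by 1.5 ± 0.21. Both lost the call without the 6 or 12 h pair (adjusted p 0.0529 and 0.0753).

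ERF and DREB factors, which act in ethylene and dehydration responses, had 3 higher and 7 lower of 225 (4.44%, against 2.25% of all probe sets). Without the 6, 12 or 24 h Al pair 5, 4 and 10 were called lower and 1, 1 and 2 higher. None was called on the 6 Al arrays alone. DREB3-like LOC100804056 stood at 8.53, 8.30 and 7.52 in GF and 7.79, 7.02 and 5.22 in KF (-1.44 ± 0.27, adjusted p = 0.0322; 0.103 without the 12 h pair), and AP2-1 of the same kind differed by -1.59 ± 0.22. ERF114-like LOC100787091 was higher by 1.57 ± 0.19. Of 160 bHLH factors 4 were lower and 0 higher (2.5%, near the 2.25% of all probe sets), led by bHLH96-like LOC100805420 at -1.70 ± 0.21, with levels of 6.25, 6.5 and 3.84 in GF and 4.99, 4.46 and 2.04 in KF.

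The aluminium tolerance list, matched by annotation text to families with members known for such a part, gave 1 call. Only 12 of its 70 tested probe sets were above background on an Al array, and none of those was called. For the others the level was not measured. Of the 70 (89 on the array), covering MATE, ALMT, Nramp, ALS3-like and STOP1-like genes, 1 was higher and 0 lower in KF (1.43%). The median was 0.0010. That one, MATE efflux 7-like LOC100800053, was below background on every array, differed by 1.41 ± 0.30 (adjusted p = 0.0484) and lost the call without the 6 h pair (adjusted p = 0.0757). ALS3-like LOC100802735, a transporter-like gene whose Arabidopsis namesake redistributes aluminium, stood at 8.56, 8.87 and 7.82 in GF and 8.07, 8.41 and 6.49 in KF. Its difference of -0.76 ± 0.25 was not called (adjusted p = 0.177), and its control levels of 6.20 to 7.39 were lower than all but 1 of those in Al. NRAMP1B, of a family of metal importers, differed by -0.73 ± 0.20 (adjusted p = 0.107). Of 65 probe sets in the list of organic acid metabolism 1 was higher and none was lower. The higher one, a subunit of succinate dehydrogenase (LOC100804926, 1.43 in Al and 2.12 in control), lay below background. It lost the call without the 12 h pair (adjusted p = 0.055). This list also rests on annotation text. It leaves out LOC100777147, phosphoenolpyruvate carboxykinase [ATP]-like, which was called lower in KF (-1.13 ± 0.23).

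Transport genes gave small counts. All 3 called aquaporins of 48 (6.25%, against 2.25% of all probe sets) were lower in KF, by -2.54, -1.54 and -0.69. Each is a PIP-type probe set that matches 1 or more genes. Without the 6, 12 or 24 h Al pair 1, 2 and 3 aquaporins were called lower, and none was called on the 6 Al arrays alone. PHT1-2, an importer of phosphate, was at 4.28, 5.35 and 5.29 in GF and 1.86, 1.38 and 1.62 in KF (-3.35 ± 0.32, adjusted p = 0.00144), and PHO1-H9, of the PHO1 family that exports phosphate, was at 3.46, 5.41 and 5.75 in KF and 1.86, 1.83 and 3.02 in GF (2.64 ± 0.31, adjusted p = 0.00357). For both genes the lower variety lay below every background level of the Al arrays (4.91 to 5.32). These differences are therefore those of the deposited signals, and the higher variety reached at most 5.35 (PHT1-2) and 5.75 (PHO1-H9). In control PHT1-2 differed by -1.70 and PHO1-H9 by -0.18. Of 134 proton pump and ion channel probe sets 5 were higher and 2 lower in KF (5.22%, against 2.25% of all probe sets). With an Al pair left out 1 to 6 were called higher and 1 or 2 lower. Among the lower ones, the vacuolar proton ATPase subunit E-like LOC100819327 stood at 6.36, 6.25 and 5.28 in GF and 3.56, 4.28 and 1.82 in KF. Its difference was -2.75 ± 0.26 in Al (adjusted p = 0.00129, at least 1.93-fold) and -1.71 in control. Of 142 ABC transporters 3 were higher and 1 lower (2.82%, near the share of all probe sets). No call was made in the lists of 81 metal transport and 60 sugar and sucrose probe sets, which rest on annotation text and leave out some transporters. Called genes outside them included 5 that were lower in KF: SWEET16 (-1.41), of a family of sugar exporters, the sugar transport protein-like genes LOC100817162 (-0.87) and LOC100817648 (-0.73), the cell wall invertase-like LOC100777487 (-1.57), which splits sucrose, and LOC100802561 (-1.42), named solute carrier family 40 member 1-like, of a family of iron exporters. These 5 were found after their values were seen, and each lost the call without the 6 or 12 h pair (adjusted p 0.0711 to 0.162). Over all probe sets, 7751 had an unadjusted p below 0.05 in limma's fit.

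The called members of the cell wall lists were all lower in KF, against 1.02% of all probe sets. Xyloglucan endotransglucosylases, which cut and rejoin wall xyloglucan, gave 0 higher and 3 lower of 42 (7.14%), the enzymes of cellulose and hemicellulose 0 and 5 of 139 (3.6%), wall structural proteins 0 and 3 of 99 (3.03%), expansins 0 and 1 of 57 (1.75%) and pectin enzymes 0 and 3 of 243 (1.23%), the last near the share of all probe sets. In control roots these 5 lists had 3 calls, a pectin enzyme higher and 2 expansins lower in KF. The catalytic cellulose synthase subunit LOC100795809 stood at 7.12, 6.65 and 5.49 in GF and 5.70, 4.82 and 2.35 in KF (-2.13 ± 0.31, adjusted p = 0.00996), with -0.0036 in control. The xyloglucan enzyme LOC100781528 was at 5.48, 6.99 and 5.31 in GF and 4.11, 5.14 and 2.63 in KF (-1.97 ± 0.28; at least 1.88-fold), and LOC100778482 at 8.87, 9.30 and 7.66 and 7.85, 8.15 and 5.05 (-1.60 ± 0.29). The proline-rich protein gene LOC100777903 stood at 8.53, 8.59 and 7.07 in GF and 7.4, 6.70 and 2.81 in KF (-2.43 ± 0.48).

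The gap between the varieties at these 4 wall genes was wider at 24 h than earlier, and LOC100778482 and LOC100777903 lost the call without the 12 h pair (adjusted p 0.0591 and 0.0933). With an Al pair left out the lower calls numbered 1 to 3 for the xyloglucan enzymes, 1 to 6 for cellulose and hemicellulose, 1 to 4 for structural proteins and 1 to 5 for pectin enzymes, and up to 3 members of a list were called higher. Callose synthases and glucanases gave no call of 96. Of the 58 probe sets for the endodermis and Casparian strip 1 was higher and 3 lower (6.9%). CASP-like LOC100793181 was higher in KF by 2.68 in Al and 2.70 in control, while the Casparian strip membrane protein-like LOC100775221 (-1.77 ± 0.36) and the CASP-like genes LOC100499706 (-1.13) and LOC100306097 (-0.88) were lower in Al and lost the call without the 6 or 12 h pair (adjusted p 0.119 to 0.187).

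In secondary metabolism UDP-glycosyltransferases, which attach sugars to hormones and phenolics, had 8 higher and 2 lower of 192 (5.21%). Among them were 3 abscisate beta-glucosyltransferase-like genes: LOC100815146 at 5.62, 5.47 and 6.42 in KF and 4.15, 3.99 and 4.95 in GF (1.47 ± 0.15, adjusted p = 0.00216), LOC100811700 (1.66 ± 0.24) and LOC100778086 (1.86 ± 0.28). In control the 3 differed by -0.11, -0.10 and 0.10. LOC100811700 and LOC100778086 lost the call without the 6 or 12 h pair (adjusted p 0.0612 and 0.0583). Cytochrome P450s, oxidases of many pathways, had 2 higher and 8 lower of 181 (5.52%). Of the 8, 6 were 71D8-like probe sets with differences of -1.61 to -1.34, of which 5 match several of the same gene models on chromosome 10 and so are not separate genes' results. The probes of 7 of the 10 called bind several genes. The other 2 lower ones were the P450 87A3-like genes LOC100812089 (-1.78 ± 0.23) and LOC100794607 (-1.54 ± 0.31; adjusted p = 0.127 without the 6 h pair). CYP76O2, outside the list by its annotation text, was lower by -2.22 ± 0.40 (adjusted p = 0.0277; 0.0525 without the 6 h pair). Flavonoid and isoflavonoid enzymes had 5 higher and 0 lower of 178 (2.81%, near the share of all probe sets), with the malonyltransferase-like gene LOC100813644 at 1.63 ± 0.19. IMT1, annotated as caffeic acid 3-O-methyltransferase-like, stood at 8.61, 8.05 and 5.55 in KF and 6.24, 5.14 and 3.13 in GF (2.57 ± 0.18), and differed by 3.35 in control. Laccase-7-like LOC100798292, of the enzymes that oxidise lignin monomers, was lower by -2.01 ± 0.21.

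**Figure D4:**
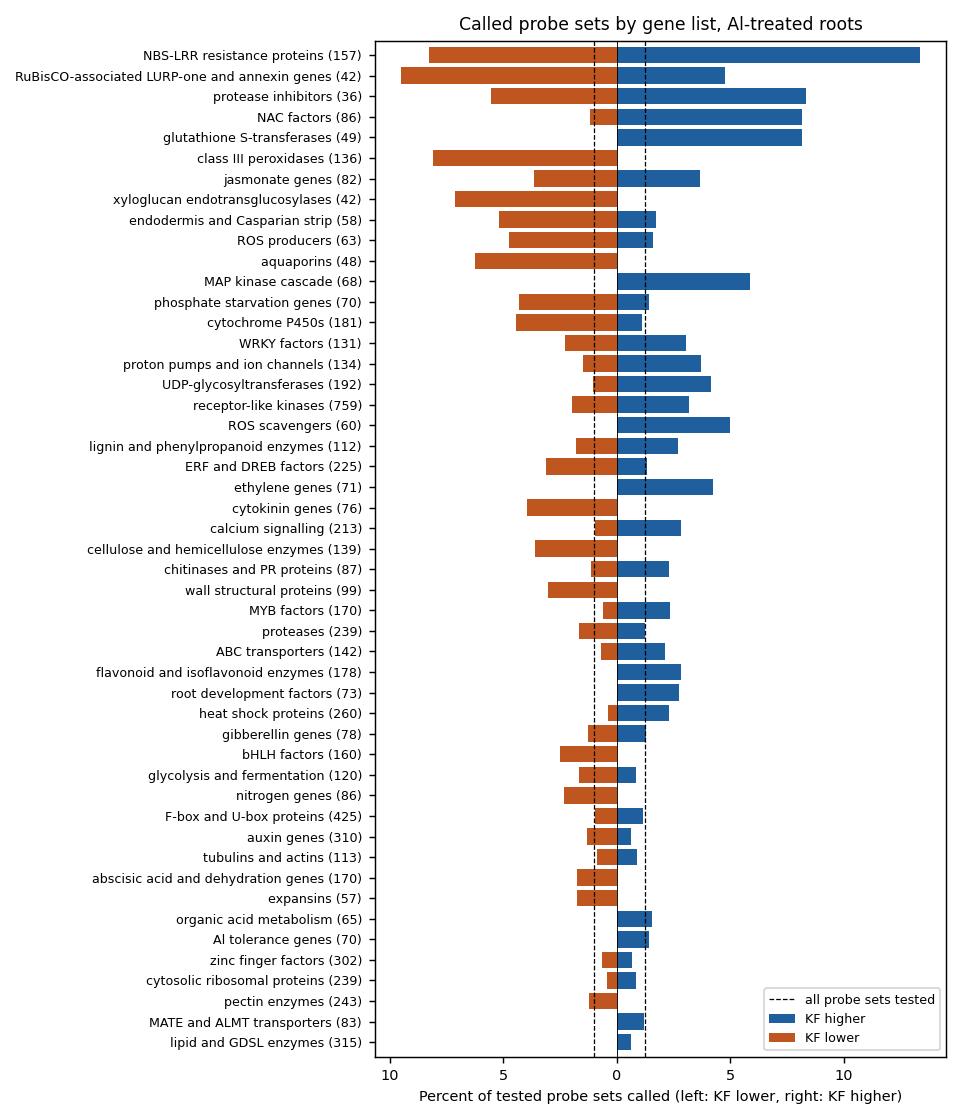
Percent of the tested probe sets of each gene list called in Al-treated roots, to the left where KF was lower and to the right where KF was higher, with the number tested in brackets; lists of 30 or more with at least 1 call are shown and the dashed lines mark 1.02% and 1.24%, the shares of all probe sets. Resistance proteins reached 21.7% in both directions together, peroxidases extended to the left only, and the glutathione S-transferases of the list to the right.

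Hormone genes were called in small numbers, given with their shares, against 2.25% of all probe sets. In jasmonate synthesis 12-oxophytodienoate reductase 3-like LOC100796758 was higher in KF, at 4.73, 6.32 and 7.57 against 2.26, 3.91 and 6.42 (2.01 ± 0.26, adjusted p = 0.00579). The lipoxygenases LOC547694 and LOC100810270 were lower by -1.37 and -1.36. The jasmonate list of 82 gave 3 each way (7.32%), but 2 higher and 0 lower without the 6 h pair or without the 12 h pair. The ethylene list had 3 higher and 0 lower of 71 (4.23%): EIN3-like 4 LOC100789795, the ACC synthase LOC100799562 (1.18) and the ACC oxidase homolog LOC100781624 (1.25). Of 78 gibberellin genes 1 was higher and 1 lower in KF (2.56%, near the share of all probe sets). The lower one, gibberellin 3-beta-dioxygenase GA3OX3, which makes active gibberellin, was at 7.69, 7.26 and 5.76 in GF. In KF it was at 6.69, 4.81 and 1.81 (-2.47 ± 0.45, adjusted p = 0.0294). The cytokinin list, matched by annotation text, had 0 higher and 3 lower of 76 (3.95%). They were LOC100801970 (-1.93 ± 0.23) and the ARR12-like regulators LOC100809002 (-1.20) and LOC100777171 (-1.01). LOC100801970 is annotated as histidine kinase 1-like, a name that does not state a part in cytokinin signalling. The abscisic acid and dehydration list of 170 had 0 higher and 3 lower (1.76%, below the share of all probe sets). Among its receptors, PYL6-like LOC100808416 was at 6.54, 7.02 and 6.93 in GF and 5.4, 4.96 and 5.32 in KF (-1.60 ± 0.21, adjusted p = 0.00596). PYR1-like LOC100788576 was lower by -1.03. The auxin list of 310 had 2 higher and 4 lower (1.94%), among them ADR11 (-1.97 ± 0.25). LOC547694, LOC100810270, LOC100799562, GA3OX3, LOC100809002, LOC100777171 and LOC100788576 lost the call without the 6 or 12 h pair (adjusted p 0.0963 to 0.177).

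Protease inhibitors gave 3 higher and 2 lower of 36 (13.9%, against 2.25% of all probe sets). Of these calls 3 were made in control too, and none was made on the 6 Al arrays alone. Only 8 of the 36 were above background on an Al array. The cysteine proteinase inhibitor LOC100816527 was at 3.35, 4.37 and 5.97 in KF and 1.25, 1.36 and 1.12 in GF (3.32 ± 0.43, adjusted p = 0.0061), and 2.34 in control. Trypsin inhibitor A-like LOC100811209 stood at 6.85, 7.39 and 7.78 in GF and 5.66, 5.64 and 4.74 in KF, a difference of -1.99 ± 0.37 in Al (adjusted p = 0.0315; 0.0964 without the 12 h pair) and of -4.34 in control. Heat shock proteins had 6 higher and 1 lower of 260 (2.69%), with HSP90A1 at 1.62 ± 0.18. Tubulin alpha LOC100783064 was higher by 3.18 ± 0.23 in Al and 2.28 in control, at 6.44, 6.32 and 6.27 in KF and 2.82, 3.27 and 3.39 in GF (at least 2.38-fold). Growth machinery gave few calls: 3 of 239 ribosomal protein genes, 0 of 98 for histones and DNA replication and 0 of 214 cyclins and mitotic genes, against 2.25% of all probe sets.

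At single times the varieties were 2-fold apart at 1968 probe sets at 6 h, 2117 at 12 h and 4957 at 24 h, each from 1 pair of arrays and so without a test. At 6 h 1031 (2.08%) were higher and 937 (1.89%) lower in KF. The 12 h pair gave 1215 (2.45%) and 902 (1.82%), and the 24 h pair 2136 (4.3%) and 2821 (5.68%). After cyclic loess between arrays the balance turned at 2 of the times, to 948 and 1032 at 6 h and to 2442 and 2319 at 24 h. The called probe sets had medians of 1.20, 1.32 and 1.27 at the 3 times among those higher in KF and -1.26, -1.28 and -1.44 among those lower, a steadiness that the test selected for. The control pair at 6 h had 750 higher (1.51%) and 496 lower (0.999%), that at 12 h 1018 (2.05%) and 398 (0.802%), and that at 24 h 1881 (3.79%) and 732 (1.47%). The widest gaps at 24 h alone included dnaJ 13-like LOC100783590, at 6.86 in KF and 1.17 in GF, with 0.85 to 1.02 on the 4 earlier Al arrays, from a probe set that binds several genes. Levels of the peroxidase LOC547872 (probe set at 39118588 to 39120674 on chromosome 13) were 9.03, 8.82 and 2.55 in KF and 9.93, 9.37 and 8.57 in GF, which left its mean of -2.49 ± 0.85 uncalled (adjusted p = 0.199).

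Called probe sets lay on all 20 chromosomes, with the highest shares on chromosome 3 (85 of 2365, 3.59%) and chromosome 18 (90 of 2787, 3.23%) and the lowest on chromosome 14 (35 of 2094, 1.67%). In positions of the array's annotation on soybean assembly V1.0, 72 runs of neighbouring called probe sets took in 152 of them, and 58 of the runs had 1 direction. The longest run, of 4 probe sets on chromosome 3 between 15206517 and 15300487, was higher in KF throughout, from 1.39 to 4.12, and included LOC100527900 at 6.23, 5.59 and 6.32 in KF against 1.63, 2.14 and 1.99 in GF. The most calls in a window of 1000000 bases, 9 of 109, lay on chromosome 16 between 36000001 and 37000000, with 4 higher and 5 lower. Between 8000001 and 9000000 on chromosome 18, 8 of 72 probe sets were called and all 8 were lower in KF. RPM1-like genes of this block are LOC100784168 and, fainter, LOC100787897 (-1.75 ± 0.27) and LOC100804137 (-1.65 ± 0.19). On chromosome 3, 8 of 38 probe sets between 7000001 and 8000000 were called, 6 of them higher, including the N-like gene LOC100800776 (1.31 ± 0.26). Of the 34 called resistance protein probe sets, 7 lay on chromosome 3, 5 of them higher in KF, and 6 on chromosome 18, 5 of them lower. LOC100787897 and LOC100800776 lost the call without the 12 h pair (adjusted p 0.0848 and 0.174).

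**Figure D5:**
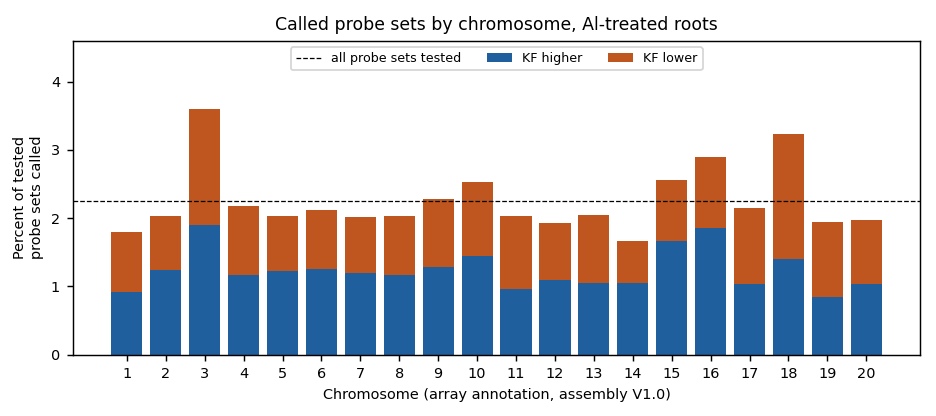
Percent of tested probe sets called in Al-treated roots on each of the 20 chromosomes, stacked by direction, with the dashed line at 2.25% for all probe sets. Chromosomes 3 and 18 reach 3.59% and 3.23%, and chromosome 14 is lowest at 1.67%.

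Where a called gene had a further probe set tested, its value mostly ran the same way. There were 27 such probe sets, of which 24 had the sign of the called one, 3 were themselves called with that sign and 0 were called with the other. Probes that bind several genes made up 143 of the 1119 called probe sets.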

How the data were processed

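Root RNA of 12 samples was hybridised as biotin-labelled cDNA to Affymetrix soybean arrays. The authors deposited 1 linear intensity per probe set and array. The quartiles of the 12 columns nearly coincide, so the values were normalized between arrays before deposit, by a method not stated in the labels. The number of arrays limits the precision. A further 24 columns of per-sample values that map to no sample by name were not used. Gene names, positions and other annotation came from the authors' deposited annotation columns (soybean assembly V1.0), with symbols updated through a RefSeq table. Of the 66195 main probe sets, 33493 had 1 gene, 2040 several and 30662 none. 

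The intensities were converted to log2 here with no pseudocount, and the main probe sets with the weakest mean signal, the bottom 0.25, were dropped. limma 3.58.1 (R 4.3.3) fitted all 12 arrays with each treatment and time as a block and a variety term for Al and for control, with eBayes (trend), 4 residual degrees of freedom and Benjamini-Hochberg adjustment over 49646 probe sets. The scripts were tested on simulated data. Named genes were the 12 highest and 12 lowest called differences with 1 gene and 1 sign at all times, those also called in the difference from control, up to 3 called members of a list by size, the 6 largest of the Al tolerance list, the 5 largest peroxidase rises and falls, the 3 largest single-pair differences per time, the 3 longest runs, and genes of an earlier summary of the series. Further called members of some lists were named after their values were seen. Lists were made by matching annotation text and can miss family members. The members and lists were chosen with earlier results of these data known. Alternatives covered the design, scaling, filter, background floor and each pair left out. Probe and variety genome sequences were not used here.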

Additional observations from a re-analysis of the deposited data

Results flagged for a closer look

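For 17 probe sets limma's test found that KF minus GF in Al departed from KF minus GF in control solution at adjusted p below 0.05, and each is given here as the log2 difference in Al less that in control. It was lower in Al for SYP24 (-5.15), LOC100779876 (-3.71) and WRKY70-like LOC100792193 (-2.53). It was higher for the glutelin-like gene LOC100782055 (4.77), GDSL enzyme LOC100809397 (4.66), GSTU24 (4.52), LOC100813626 (2.76), Mx1-like LOC100797278 (2.39), LOC100820614 (1.97), GASA4 (1.57) and PTS3 (1.49). The unnamed probe sets 11866315 (4.24), 11898234 (2.74) and 11972047 (2.72) and the gene model GLYMA18G15490 (2.07) were also higher. For expansin-like B1 LOC100778424 (4.08) and LOC100776716 (2.29) the varieties differed in control and were not called in Al. Without the 24 h control pair 2 of all probe sets were called in this test.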

How the results depend on the processing

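The count of 1119 called in Al became 1168 after cyclic loess, 1117 with median centring, 1091 without the filter, 1225 with the weaker 0.5 left out, 947 with an offset of 4, 1027 without the trend and 1001 without probe sets that bind several genes. It was 173 on the 6 Al arrays alone (172 of them shared), 296 without blocks, 399 with an additive time effect, 700 among probe sets above background, 573 with each array floored at its own background and 26 at a common floor. It was 736 without the 24 h control pair, and 658, 503 and 1336 without the 6, 12 or 24 h Al pair. Leaving out an Al pair or all 4 arrays of a time gave 126 to 1359. The last 2 kinds of floor test fewer probe sets, and the common floor and the omitted control pair were chosen after seeing the data; the cause of the other shifts was not tested. The 17 that changed with Al became 4, 5, 26, 8, 514, 0, 2 and 5 without blocks, with additive time, with the weaker 0.5 out, above background, with own floors, at the common floor, without the 24 h control pair and with the offset, 39, 8 and 167 without the 6, 12 or 24 h Al pair, and 0 to 167 over these and the fits without all 4 arrays of a time. At the common floor 533 had an unadjusted p below 0.05 in limma's test. The control count of 626 became 269, 409, 237, 3815, 39 and 219 without blocks, with additive time, above background, with own floors, at the common floor and without the 24 h control pair, 518, 519 and 1254 without the 6, 12 or 24 h Al pair, and 75 to 1254 over these and the fits without all 4 arrays of a time. With own floors 37.5% of the calls in Al were higher in KF against 54.9%, and 5.82% of those in control against 65.5%. At single times 1.5-fold gave 6125, 6711 and 10850 probe sets and 4-fold 308, 364 and 1092. Of 211 named called probe sets, all but 5 kept the call after loess, 56 kept it on the Al arrays alone, 125, 112 and 160 without the 6, 12 or 24 h Al pair, and 147 without the 24 h control pair. Signs turned for LOC100776716 (0.047 after loess, and -0.226 to 0.0902 with a pair left out), LOC100783590 (-0.112 to 2.82 with a pair left out) and, with own floors, 11812680 (-0.0198), 11812682 (-0.0768) and LOC100779013 (-0.075). The second deposited table, with columns that name no sample, was not run. The time-matched pairs are the block of the reported fit, and the fit without blocks is the unpaired alternative. No paired analysis by replicate number was possible because each variety, treatment and time has 1 array.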
